A study of Mus musculus with 16 samples.

Results

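The analysis covers 8 transcription factor genes that carry the output of the circadian clock in mouse striatum: Hlf, Dbp, Tef, Nfil3, Bhlhe40, Bhlhe41, Rora and Rorb. They were read on every probe set whose annotation held exactly 1 gene symbol and where that symbol was one of the 8. This gave 23 of 34945 such probe sets, and 8 of 18193 genes. RNA of whole striatum was hybridized to Affymetrix Mouse Genome 430 2.0 arrays, 16 in all, with 4 biological replicates of each of 4 genotypes on the B6xCBA strain. R6/2 x DREAM +/- mice came from a cross of R6/2 with DREAM knockout mice and carry both the R6/2 transgene and, per the labels' +/-, 1 disrupted DREAM allele. R6/2 mice carry the transgene alone, a first exon of the human huntingtin gene with an expanded CAG repeat, a model of Huntington's disease in which the transgene is present in all cells. DREAM +/- mice carry the disrupted allele alone, and Wild Type mice carry neither. DREAM is a calcium-binding repressor of transcription encoded by Kcnip3.

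The labels name striatal neurons as the cell type, but the extract was whole striatum, so fewer cells of a type and less RNA per cell cannot be told apart. No source used here gives the age or sex of the animals, the hour of dissection, or whether RNA of several animals was pooled. Transcripts of these genes oscillate over the day, so an hour that differed between groups and the genotype cannot be told apart here. Values are log2 probe-set levels, and they are compared between genotypes within a probe set only. With 4 arrays a genotype, the number of arrays sets how precise each value is.

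In the clock, CLOCK (or its forebrain paralogue NPAS2) pairs with BMAL1, encoded by Arntl, and activates genes through E-box sequences, among them the Per and Cry genes whose products shut the pair off. HLF, DBP and TEF are the PAR bZIP factors, which activate genes through D-box sequences and whose own genes are classic clock outputs. NFIL3, also called E4BP4, represses genes at the same D-boxes. BHLHE40 and BHLHE41, also called DEC1 and DEC2, are repressors that bind E-boxes and oppose CLOCK and BMAL1. RORA and RORB are orphan nuclear receptors that activate genes such as Arntl through ROR elements, where NR1D1 and NR1D2 repress. Bhlhe40 is also known as a gene that neuronal activity induces.

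The promoters of Hlf, Dbp and Tef are printed because these 3 genes carry most of the differences described here and are textbook targets of the clock. Each is the 250 bases before an annotated start, from RefSeq (GRCm38.p6), written 5′ to 3′ on the gene's strand. Hlf lies at chr11:90390918-90391167 on the minus strand and Dbp at chr7:45704997-45705246 on the plus strand. Tef has starts with windows at chr15:81802423-81802672 and chr15:81811164-81811413, both on the plus strand. Capitals mark every match to a searched motif on either strand.
Hlf: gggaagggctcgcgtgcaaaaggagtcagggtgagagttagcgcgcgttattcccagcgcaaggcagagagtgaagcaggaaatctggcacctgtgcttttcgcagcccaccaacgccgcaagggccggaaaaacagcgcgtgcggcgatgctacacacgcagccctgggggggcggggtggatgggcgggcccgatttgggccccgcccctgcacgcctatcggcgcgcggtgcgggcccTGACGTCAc
Dbp: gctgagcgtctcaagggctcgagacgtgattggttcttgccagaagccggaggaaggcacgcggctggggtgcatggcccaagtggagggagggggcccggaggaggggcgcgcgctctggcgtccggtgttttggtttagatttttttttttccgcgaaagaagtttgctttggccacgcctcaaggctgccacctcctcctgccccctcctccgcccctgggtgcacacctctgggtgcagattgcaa
Tef, first window: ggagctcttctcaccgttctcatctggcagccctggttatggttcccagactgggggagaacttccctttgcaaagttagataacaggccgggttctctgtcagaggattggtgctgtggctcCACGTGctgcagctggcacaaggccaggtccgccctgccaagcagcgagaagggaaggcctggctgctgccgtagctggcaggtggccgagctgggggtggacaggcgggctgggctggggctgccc
Tef, second window: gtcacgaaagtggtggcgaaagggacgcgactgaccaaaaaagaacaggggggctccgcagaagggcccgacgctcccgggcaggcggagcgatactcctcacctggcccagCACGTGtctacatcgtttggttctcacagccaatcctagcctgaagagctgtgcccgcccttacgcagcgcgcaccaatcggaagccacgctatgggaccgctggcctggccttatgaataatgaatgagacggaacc

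The motifs searched were the E-box CACGTG, its variant CACGTT, the D-box TTANGTAA, the ROR half-site AGGTCA and the cyclic AMP element TGACGTCA. Among 32851 windows of this length they were present in 6.02%, 3.85%, 2.06%, 14.0% and 1.55%. Each Tef window held 1 E-box, starting 127 and 138 bases before the start, and the Hlf window held 1 cyclic AMP element, starting 9 bases before it. The Dbp window held none of the 5 motifs. Promoter entries were matched for 7 of the 8 genes, all but Bhlhe40. A match is a description of letters, and no match says only that these letters are absent from the window.

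Before the comparisons, 3 arrays that stand apart have to be named. R6/2 x DREAM +/- replicate 3 lay at 35.7 on the third principal component (13.2% of the variance), where the other 15 arrays lay between -14.5 and 5.01. Its difference between 3′ and 5′ probe sets of Actb, a sign of RNA quality, was 1.10, against 1.03 in Wild Type replicate 4 and 0.44 to 0.76 in the other 14 arrays. Wild Type replicate 3 lay at -7.80 on the first component, where the other Wild Type arrays lay between 9.11 and 23.8. R6/2 replicate 1 read 6.49 for Xist, the transcript of the inactive X chromosome, against 11.04 to 12.16 in the other 15. Kcnip3, the targeted gene, averaged 7.56 in R6/2 x DREAM +/-, 9.11 in R6/2, 7.77 in DREAM +/- and 9.67 in Wild Type on its probe set 1418544_at, which is 34.1% of the R6/2 level in R6/2 x DREAM +/- and 26.9% of the Wild Type level in DREAM +/-. On 1449129_a_at the shares were 16.6% and 13.0%, with means of 5.40 in R6/2 x DREAM +/- and 5.58 in DREAM +/-, both under the brightness filter of 5.94. All 4 shares lie below the 50% of alleles that a heterozygote keeps. Which part of Kcnip3 was deleted is unstated in the labels, so these levels check the labels only if the probe set lies within it.

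The R6/2 transgene was compared on both DREAM backgrounds, R6/2 against Wild Type and R6/2 x DREAM +/- against DREAM +/-. The group means of these comparisons share no arrays. The spread was estimated from all 16 arrays, so the tests of these comparisons are not fully independent. Hlf, Dbp and Bhlhe40 were lower with the transgene in both, and Tef was lower in each on a different probe set. Nfil3, Bhlhe41, Rora and Rorb had no probe set that passed in either. In R6/2 against Wild Type 6 of 23 probe sets, of 4 genes, were lower and 0 higher, where 6.42% of all probe sets were lower and 6.74% higher (limma, Benjamini-Hochberg adjusted p under 0.05 over 34945 probe sets). In R6/2 x DREAM +/- against DREAM +/- the count was again 6 lower, of 4 genes, and 0 higher, where 4.01% of all probe sets were lower and 2.91% higher. Called in both were 5 probe sets, the 2 of Hlf, the 2 of Dbp and that of Bhlhe40. The share of all probe sets lower in both was not counted, so this number is a description only. The median log2 difference over the 23 was -0.148 and -0.008 in the same order, against 0.025 and 0.012 over all probe sets, so the middle of the 23 lay near 0 in the second. Leaving out R6/2 replicate 1 and R6/2 x DREAM +/- replicate 3 together changed none of these 12 calls. Some were lost on leaving out 1 array. In R6/2 against Wild Type this was Tef 1424175_at (any 1 of 5 arrays). In R6/2 x DREAM +/- against DREAM +/- these were Hlf 1434736_at (any 1 of 10) and Tef 1450184_s_at (either of 2). With only the compared groups entered, R6/2 x DREAM +/- against DREAM +/- had 4 lower instead of 6.

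**Figure D1:**
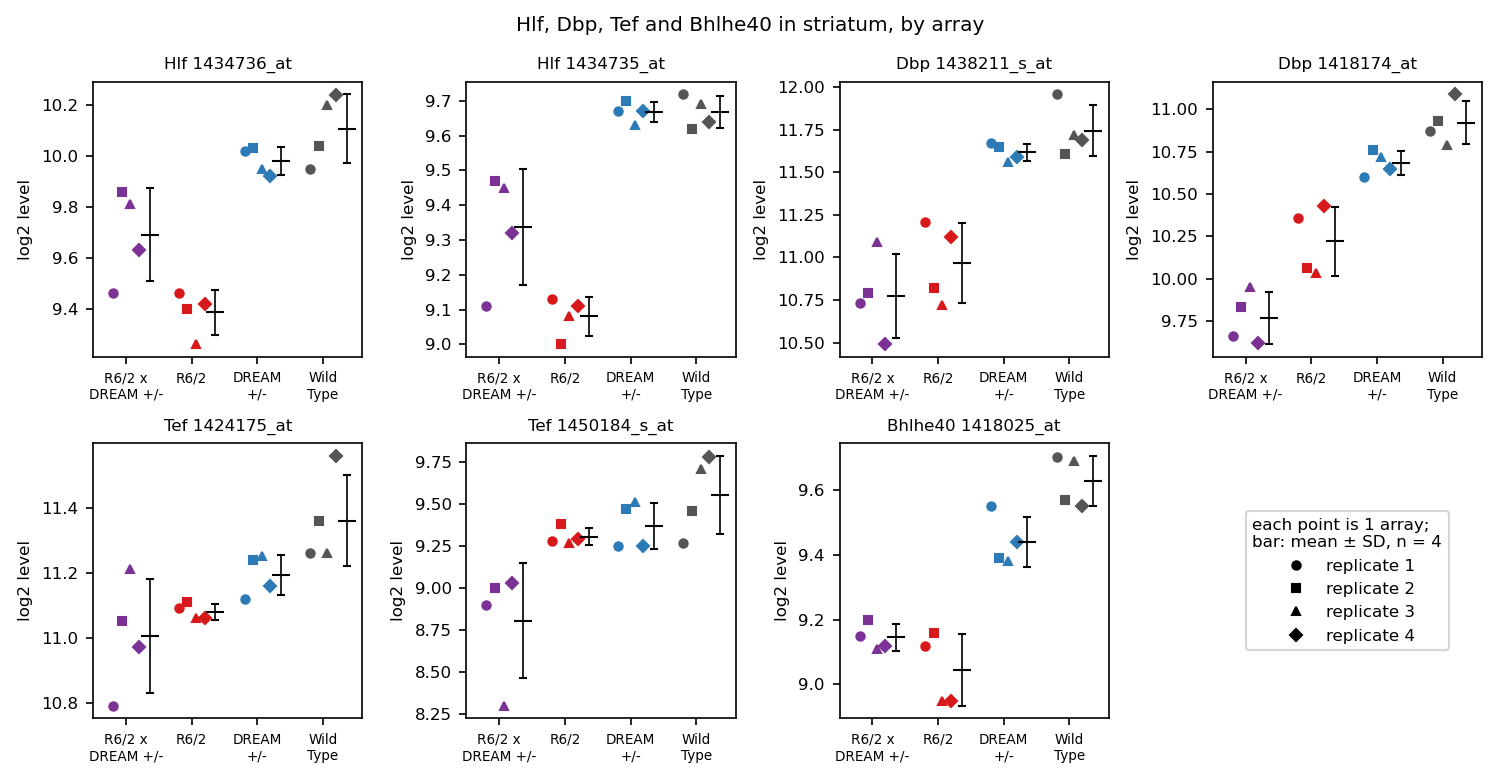
Log2 level (y axis) of the 2 Hlf, 2 Dbp, 2 Tef and 1 Bhlhe40 probe sets in each array, by genotype (x axis). Points are arrays with the shape giving the replicate number, and bars are mean ± SD (n = 4). On Hlf, Dbp and Bhlhe40 every array with the R6/2 transgene lies below every array without it.

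Hlf, a PAR bZIP activator, was lower with the transgene on both backgrounds and both probe sets. Probe set 1434736_at read 9.46, 9.86, 9.81 and 9.63 in R6/2 x DREAM +/-, 9.46, 9.40, 9.26 and 9.42 in R6/2, 10.02, 10.03, 9.95 and 9.92 in DREAM +/-, and 9.95, 10.04, 10.20 and 10.24 in Wild Type (log2). All 8 arrays with the transgene lay below all 8 without it, and within the transgenic arrays R6/2 x DREAM +/- replicate 1 sat with the R6/2 group. The R6/2 level was 60.6% of Wild Type, a log2 difference of -0.72 (SE 0.084, 95% interval -0.90 to -0.55, limma adjusted p = 2.90e-05). On the DREAM +/- background the level was 81.8%, a difference of -0.29 (interval -0.47 to -0.11, limma adjusted p = 0.0465).

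Probe set 1434735_at of Hlf repeated the order of groups. It read 9.11, 9.47, 9.45 and 9.32 in R6/2 x DREAM +/-, 9.13, 9.0, 9.08 and 9.11 in R6/2, 9.67, 9.70, 9.63 and 9.67 in DREAM +/-, and 9.72, 9.62, 9.69 and 9.64 in Wild Type. The DREAM +/- and Wild Type arrays were interleaved, and the transgenic arrays lay below them all. R6/2 differed from Wild Type by -0.59 (SE 0.067, 66.55% of its level, limma adjusted p = 2.41e-05) and R6/2 x DREAM +/- from DREAM +/- by -0.33 (79.55%, adjusted p = 0.00563). The call of 1434736_at on the DREAM +/- background was lost on leaving out any 1 of 10 arrays (limma adjusted p up to 0.150), of which leaving out R6/2 x DREAM +/- replicate 1 gave the smallest difference, -0.21. Quantile normalization, all probe sets but controls, only the compared groups, or the replicate number as a block also ended it (limma adjusted p 0.0538 to 0.0822). The call of 1434735_at was kept in all of these fits.

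Dbp, the most strongly oscillating of the PAR bZIP genes in many tissues, was lower with the transgene on both backgrounds and both probe sets. Probe set 1438211_s_at read 10.73, 10.79, 11.09 and 10.49 in R6/2 x DREAM +/-, 11.21, 10.82, 10.72 and 11.12 in R6/2, 11.67, 11.65, 11.56 and 11.59 in DREAM +/-, and 11.96, 11.61, 11.72 and 11.69 in Wild Type. The transgenic groups overlapped each other and neither reached a group without the transgene. R6/2 held 58.3% of the Wild Type level (-0.78, SE 0.12, limma adjusted p = 0.000331) and R6/2 x DREAM +/- 55.8% of the DREAM +/- level (-0.84, adjusted p = 0.000321).

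On Dbp probe set 1418174_at the 4 groups formed 4 steps. It read 9.66, 9.83, 9.95 and 9.62 in R6/2 x DREAM +/-, 10.36, 10.06, 10.03 and 10.43 in R6/2, 10.60, 10.76, 10.72 and 10.65 in DREAM +/-, and 10.87, 10.93, 10.79 and 11.09 in Wild Type. No group overlapped the next, although the step between DREAM +/- and Wild Type did not pass the test. R6/2 held 61.6% of the Wild Type level (-0.70, SE 0.096, limma adjusted p = 0.000132) and R6/2 x DREAM +/- 52.9% of the DREAM +/- level (-0.92, adjusted p = 2.30e-05). Of the PAR bZIP genes, Dbp had the largest R6/2 difference on the DREAM +/- background.

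Tef differed less, and its probe sets did not give 1 pattern. Probe set 1424175_at read 10.79, 11.05, 11.21 and 10.97 in R6/2 x DREAM +/-, 11.09, 11.11, 11.06 and 11.06 in R6/2, 11.12, 11.24, 11.25 and 11.16 in DREAM +/-, and 11.26, 11.36, 11.26 and 11.56 in Wild Type. R6/2 lay below Wild Type without overlap, at 82.4% of its level (-0.28, SE 0.080, limma adjusted p = 0.0279), while R6/2 x DREAM +/- overlapped DREAM +/- (-0.19, adjusted p = 0.199). The first of these calls was lost without R6/2 replicate 1, 3 or 4 or Wild Type replicate 2 or 4 (limma adjusted p 0.0538 to 0.0812), and the second difference passed without R6/2 x DREAM +/- replicate 3 (-0.26, adjusted p = 0.0460).

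Probe set 1450184_s_at of Tef read 8.90, 9.0, 8.30 and 9.03 in R6/2 x DREAM +/-, 9.28, 9.38, 9.27 and 9.29 in R6/2, 9.25, 9.47, 9.51 and 9.25 in DREAM +/-, and 9.27, 9.46, 9.71 and 9.78 in Wild Type. The R6/2 x DREAM +/- arrays stood apart, below all 12 other arrays, and its replicate 3 was the lowest of the 16. R6/2 x DREAM +/- held 67.7% of the DREAM +/- level (-0.56, limma adjusted p = 0.0193). This call was lost without DREAM +/- replicate 2 or 3 (adjusted p = 0.0670 and 0.0668) and with only the compared groups entered (0.0582). R6/2 read -0.25 against Wild Type (adjusted p = 0.267). The third, 1438033_at, read 5.53 to 6.04 over all arrays, had a mean under the brightness filter of 5.94 and passed in no comparison.

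Nfil3, the repressor at D-boxes, did not pass in any comparison. Its probe set 1418932_at read 6.38, 6.47, 6.59 and 6.39 in R6/2 x DREAM +/-, 6.28, 6.52, 6.47 and 6.28 in R6/2, 6.37, 6.16, 6.51 and 6.25 in DREAM +/-, and 6.37, 6.62, 6.42 and 6.34 in Wild Type. The 4 groups overlapped. The difference of R6/2 from Wild Type was -0.05 with a 95% interval of -0.23 to 0.13 (limma adjusted p = 0.764), an interval that does not reach the differences of Hlf and Dbp, and that of R6/2 x DREAM +/- from DREAM +/- was 0.14 (adjusted p = 0.436). The mean of this probe set was above that of 47.5% of all probe sets, and a dim probe set can understate a difference.

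Bhlhe40, the E-box repressor, was lower with the transgene on both backgrounds, with no overlap. Its 1 probe set, 1418025_at, read 9.15, 9.20, 9.11 and 9.12 in R6/2 x DREAM +/-, 9.12, 9.16, 8.95 and 8.95 in R6/2, 9.55, 9.39, 9.38 and 9.44 in DREAM +/-, and 9.70, 9.57, 9.69 and 9.55 in Wild Type. The transgenic arrays reached at most 9.20 and the others were at 9.38 or above. R6/2 held 66.8% of the Wild Type level (-0.58, SE 0.061, limma adjusted p = 1.22e-05) and R6/2 x DREAM +/- 81.5% of the DREAM +/- level (-0.30, adjusted p = 0.00686). Both calls were kept on leaving out each array in turn.

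Its paralogue Bhlhe41 had no called probe set. Probe set 1457096_at read 5.71, 6.16, 5.88 and 5.85 in R6/2 x DREAM +/-, 5.87, 5.94, 5.89 and 5.83 in R6/2, 6.0, 6.0, 6.05 and 5.90 in DREAM +/-, and 6.09, 6.17, 5.93 and 6.11 in Wild Type. The groups overlapped and lay near the brightness filter of 5.94. R6/2 differed from Wild Type by -0.19 (limma adjusted p = 0.122). The other, 1421099_at, read 5.41 to 5.97 and had a mean under the filter.

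**Figure D2:**
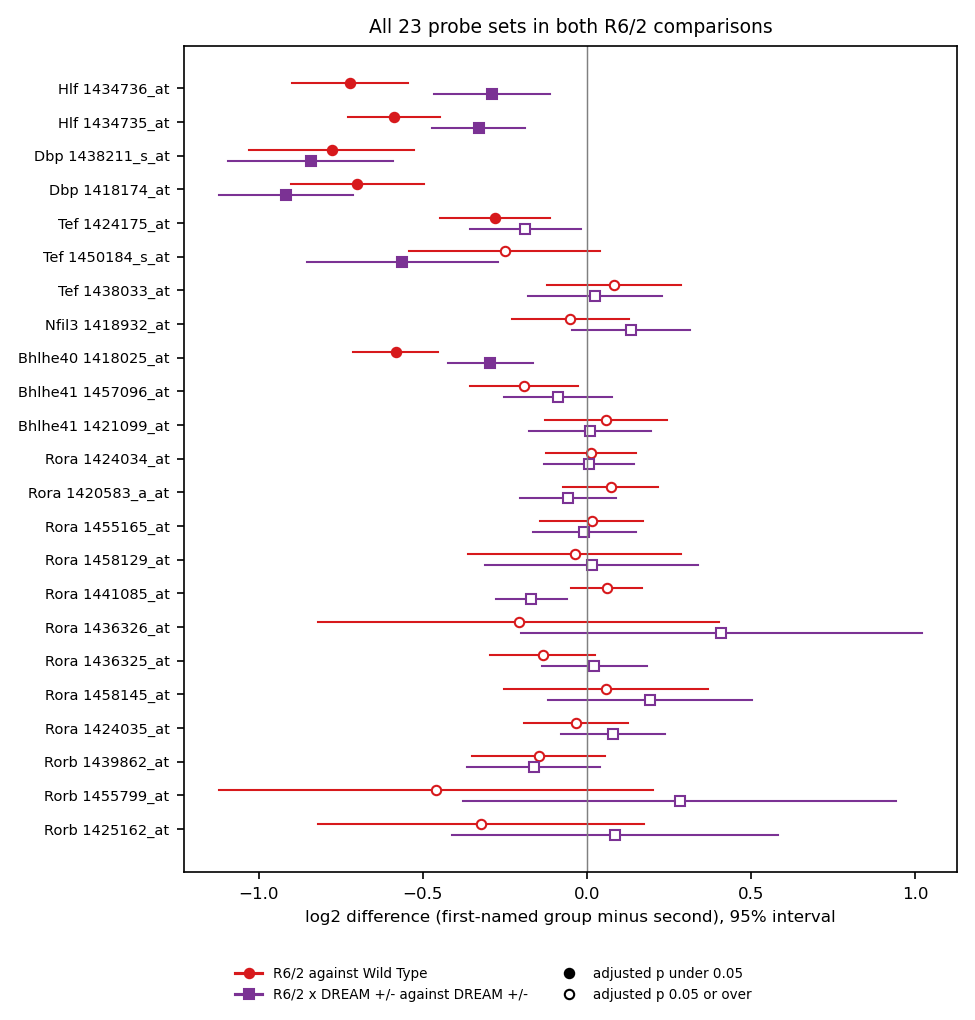
Log2 difference (x axis) with its 95% interval for all 23 probe sets (y axis) in both R6/2 comparisons, R6/2 minus Wild Type and R6/2 x DREAM +/- minus DREAM +/-. Filled symbols passed at an adjusted p under 0.05. The filled symbols are on Hlf, Dbp, Tef and Bhlhe40 and all lie below 0.

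Rora had 9 probe sets and Rorb 3, and none passed in an R6/2 comparison. The brightest Rora probe set, 1424034_at, averaged 9.83 in R6/2 x DREAM +/-, 9.82 in R6/2, 9.83 in DREAM +/- and 9.81 in Wild Type, and R6/2 differed from Wild Type by 0.01 (95% interval -0.12 to 0.15). Rora 1441085_at read 7.20, 7.24, 7.13 and 7.20 in R6/2 x DREAM +/- and 7.29, 7.36, 7.45 and 7.35 in DREAM +/-. These groups did not overlap, and the difference of -0.17 missed the threshold (limma adjusted p = 0.0568). Over the 9 Rora probe sets the R6/2 differences from Wild Type ran from -0.21 to 0.07 and those of R6/2 x DREAM +/- from DREAM +/- from -0.17 to 0.41. The difference of 1441085_at passed with the brightness filter, quantile normalization, a shift to a common median or array weights (limma adjusted p 0.0392 to 0.0471). Rora 1436326_at passed as higher in R6/2 x DREAM +/- than in DREAM +/- without Wild Type replicate 3 (0.41, limma adjusted p = 0.0491).

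Rora 1436326_at and Rorb 1455799_at were the most variable of the 23 in Wild Type. Rora 1436326_at read 7.58, 7.88, 7.25 and 7.48 in R6/2 x DREAM +/-, 6.74, 6.48, 6.84 and 6.64 in R6/2, 6.98, 7.04, 7.23 and 7.30 in DREAM +/-, and 6.58, 6.52, 8.20 and 6.23 in Wild Type. Rorb 1455799_at read 7.05, 7.30, 6.62 and 7.26 in R6/2 x DREAM +/-, 6.27, 5.76, 6.25 and 6.21 in R6/2, 6.87, 6.61, 6.65 and 6.97 in DREAM +/-, and 6.35, 6.56, 7.84 and 5.58 in Wild Type. On both, Wild Type replicate 3 was the highest of all 16 arrays, and on Rorb 1425162_at it was again highest, at 7.21. RORB marks cortical and thalamic neurons as well as other cells. The mean of 5 thalamic markers in Wild Type replicate 3 was 7.32, at the top of the Wild Type range that began at 7.20. The mean of 6 cortical markers was 8.65, the lowest of Wild Type. The thalamic mean was also 7.32 in R6/2 replicate 3 and 7.34 in DREAM +/- replicate 1. Those arrays read 6.84 and 6.98 on Rora 1436326_at, and 6.25 and 6.87 on Rorb 1455799_at. The part of the thalamic and cortical markers in these readings was not tested. The brightest Rorb probe set, 1439862_at, read 8.10, 8.04, 8.48 and 8.22 in R6/2 x DREAM +/-, 8.12, 8.20, 8.33 and 8.09 in R6/2, 8.61, 8.23, 8.30 and 8.35 in DREAM +/-, and 8.46, 8.30, 8.24 and 8.33 in Wild Type. All groups overlapped on it, and R6/2 differed from Wild Type by -0.15 (limma adjusted p = 0.355).

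**Figure D3:**
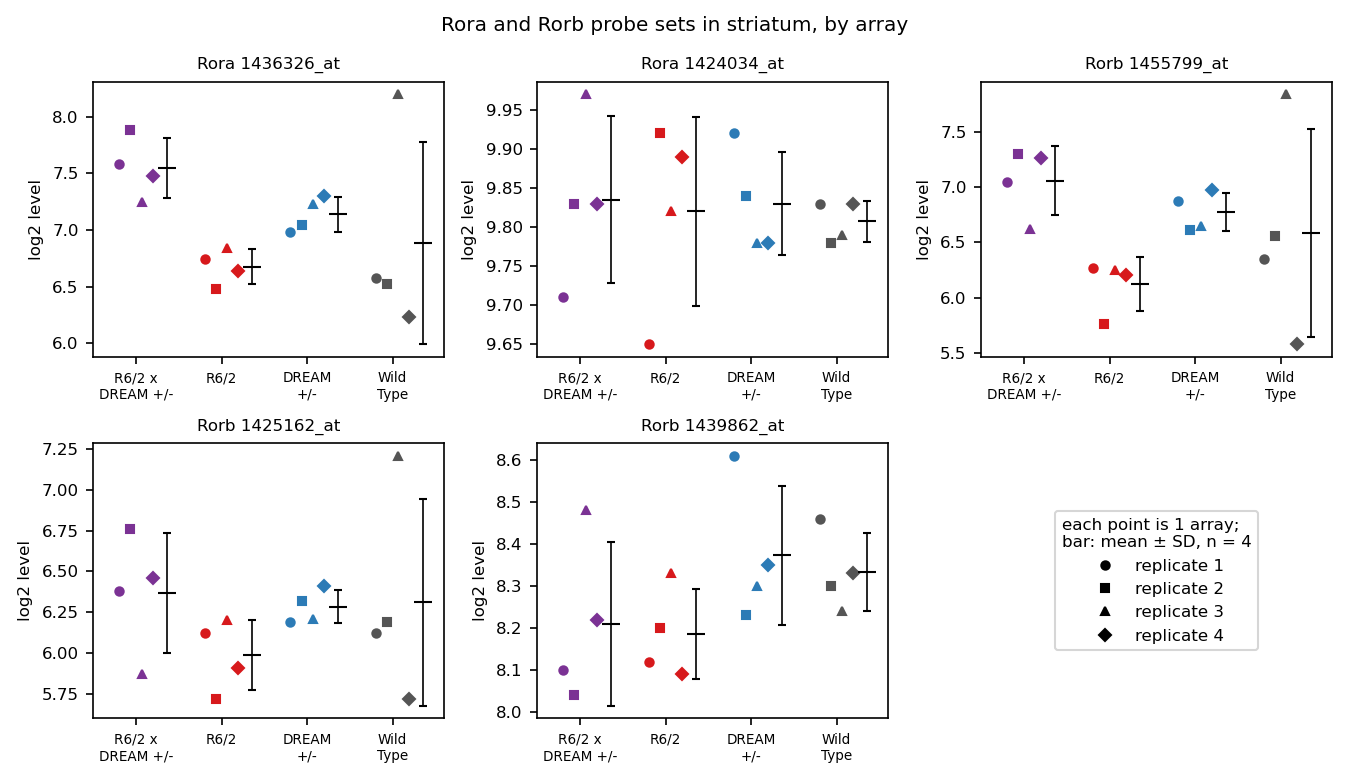
Log2 level (y axis) of 2 Rora and 3 Rorb probe sets in each array, by genotype (x axis), with mean ± SD (n = 4). Wild Type replicate 3 reads 8.20 on Rora 1436326_at and 7.84 on Rorb 1455799_at, above every other array, while Rora 1424034_at is level across genotypes.

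The DREAM +/- genotype of the labels was compared with and without the transgene, R6/2 x DREAM +/- against R6/2 and DREAM +/- against Wild Type. With the transgene, both Hlf probe sets were higher and 1 probe set each of Dbp and Tef was lower. Without it, none of the 23 passed. In R6/2 x DREAM +/- against R6/2 the counts were 2 lower and 2 higher, of 3 genes, where 4.22% of all probe sets were lower and 3.53% higher. In DREAM +/- against Wild Type limma called 0 of 23 where 1.11% of all probe sets were lower and 1.15% higher, and 3 of the 23 (13.0%) had an unadjusted p under 0.05, against 14.0% of all probe sets. These comparisons share groups with the R6/2 comparisons, so their values are not independent of them.

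Hlf on 1434736_at was at 123.5% of the R6/2 level in R6/2 x DREAM +/- (0.31, limma adjusted p = 0.0352) and on 1434735_at at 119.5% (0.26, adjusted p = 0.0270). The groups overlapped on both, through R6/2 x DREAM +/- replicate 1. Without both R6/2 replicate 1 and R6/2 x DREAM +/- replicate 3, neither passed (limma adjusted p = 0.0712 and 0.0628), and leaving out R6/2 x DREAM +/- replicate 2 alone gave 0.112 and 0.0883. Leaving out any 1 of 7 arrays ended the call of 1434736_at, and any 1 of 4 that of 1434735_at. DREAM +/- differed from Wild Type by -0.13 on 1434736_at (adjusted p = 0.541) and 0.00 on 1434735_at (95% interval -0.14 to 0.14).

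Dbp on 1418174_at was at 72.95% of the R6/2 level in R6/2 x DREAM +/- (-0.46, limma adjusted p = 0.00951), with no overlap, and the call was kept on leaving out each array. The other Dbp probe set, 1438211_s_at, had the same sign but overlapped (-0.19, adjusted p = 0.359), so the probe sets disagree on whether Dbp passed. Tef on 1450184_s_at was at 70.8% of the R6/2 level (-0.50, adjusted p = 0.0364). The Tef call was lost on leaving out any 1 of the 4 R6/2 arrays or R6/2 x DREAM +/- replicate 1 (limma adjusted p 0.0547 to 0.0864), and with only the compared groups entered (0.0713). Without R6/2 x DREAM +/- replicate 3 it was kept at a smaller difference of -0.33. Leaving out both that array and R6/2 replicate 1 ended it (-0.34, limma adjusted p = 0.0749). The replicate number as a block also ended it (limma adjusted p = 0.0512).

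In DREAM +/- against Wild Type, Dbp 1418174_at read -0.24 (limma adjusted p = 0.258), Bhlhe40 -0.19 (adjusted p = 0.141) and Rora 1441085_at 0.14 (adjusted p = 0.211). Bhlhe40 differed between R6/2 x DREAM +/- and R6/2 by 0.10 (adjusted p = 0.355). Rora 1436326_at and Rorb 1455799_at were higher in every R6/2 x DREAM +/- array than in every R6/2 array, by 0.87 and 0.94, without passing (limma adjusted p = 0.0749 and 0.0774). Without Wild Type replicate 3, whose spread enters the shared error, these same differences passed (limma adjusted p = 0.000297 and 0.00555), as they did with array weights (0.0231 and 0.0176) or only the compared groups (0.00419 and 0.00962), and Rora 1436326_at was then higher in DREAM +/- than in Wild Type by 0.69 (adjusted p = 0.00502), where the value with all arrays was not called.

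**Figure D4:**
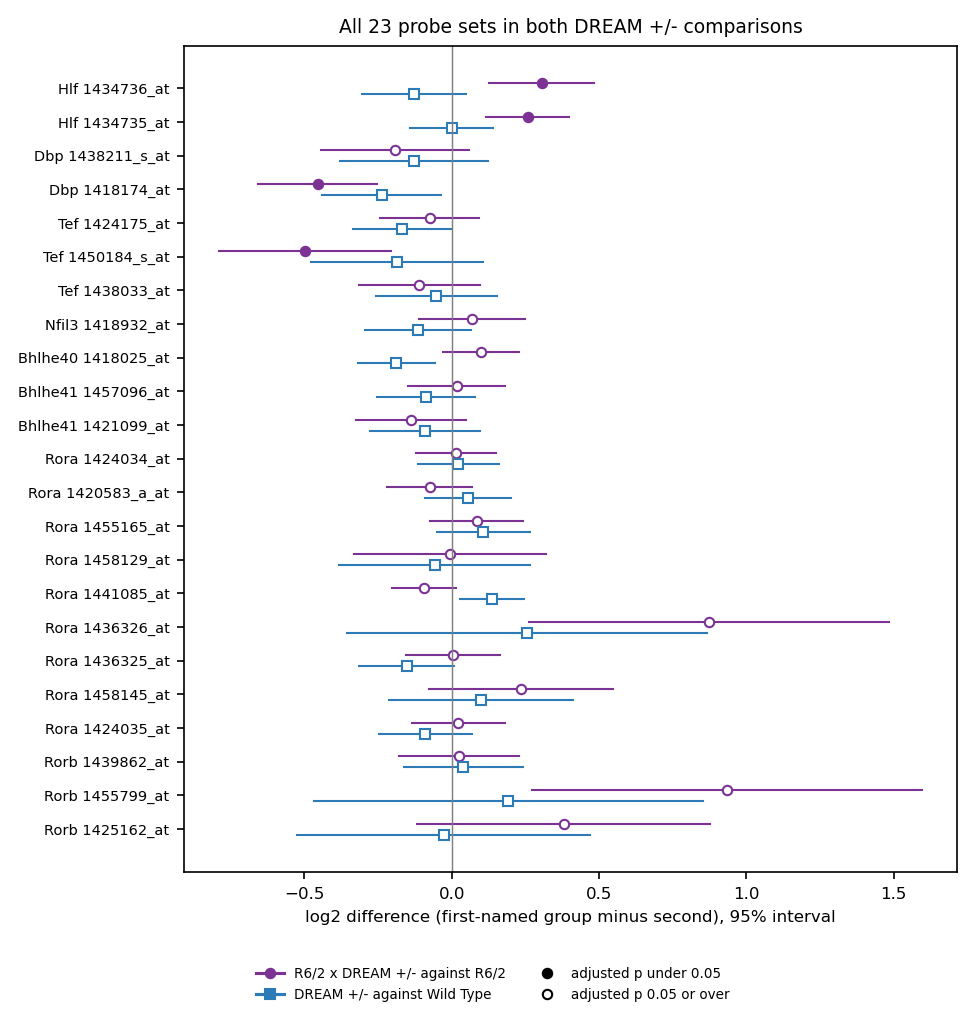
Log2 difference (x axis) with its 95% interval for all 23 probe sets (y axis) in both DREAM +/- comparisons. Filled symbols passed at an adjusted p under 0.05. Only R6/2 x DREAM +/- against R6/2 has filled symbols, with Hlf above 0 and 1 probe set each of Dbp and Tef below it.

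Whether the R6/2 difference depended on the DREAM genotype was tested by the interaction. limma called 0 of 23 and 0 of 34945 probe sets, a share of 0%, and 4 of the 23 (17.4%) had an unadjusted p under 0.05, against 6.07% of all probe sets. The Hlf difference was smaller in size on the DREAM +/- background by 0.43 on 1434736_at and 0.26 on 1434735_at (limma adjusted p = 0.723 and 0.758). For Bhlhe40 the interaction was 0.29 and for Rora 1441085_at -0.23 (both adjusted p = 0.723). A difference between backgrounds was therefore not shown for any of the 8 genes.

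Other clock genes were counted on the brightest probe set of each gene. Of 15 core clock genes on the array 6 were lower and 0 higher in R6/2 against Wild Type, where 7.44% of all genes were lower and 8.22% higher. In R6/2 x DREAM +/- against DREAM +/- 4 were lower and 0 higher, where 4.71% of all genes were lower and 3.63% higher. In R6/2 against Wild Type the 6 were Npas2 (-0.88), Per1 and Ciart (-0.68 each), Nr1d1 (-0.57), Per2 (-0.48) and Arntl (-0.46). NPAS2 and BMAL1 are activators, and PER1, PER2, CIART and NR1D1 are repressors of the loop. On the DREAM +/- background they were Ciart and Npas2 (-0.73 each), Nr1d1 (-0.46) and Per3 (-0.37). Clock, Cry1, Cry2 and Nr1d2 passed in neither.

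Per3 was the core clock gene that passed for the DREAM allele. It read 7.55, 7.27, 7.45 and 7.35 in R6/2 x DREAM +/-, 8.09, 8.21, 7.94 and 8.16 in R6/2, 7.61, 7.69, 7.94 and 7.85 in DREAM +/-, and 8.26, 7.95, 8.34 and 8.48 in Wild Type. R6/2 x DREAM +/- lay below R6/2 by 0.70 on the log2 scale and DREAM +/- below Wild Type by 0.48 (limma adjusted p = 0.000765 and 0.0173). Per2 and Per1 differed by as much in DREAM +/- against Wild Type, -0.50 and -0.48, without overlap, but missed the threshold (limma adjusted p = 0.0906 and 0.110). Against R6/2 they read -0.17 and -0.07 in R6/2 x DREAM +/-, with overlap. Per3 was the 1 of 15 lower in each of these comparisons and none was higher, where 4.73% and 1.17% of all genes were lower and 2.91% and 0.929% higher. Of 7 further clock output genes on the array, 1 was lower in R6/2 x DREAM +/- against DREAM +/-, where 4.71% of all genes were lower. In R6/2 against Wild Type 0 of the 7 were lower, where 7.44% of all genes were. The 1 was Usp2, a deubiquitinase (-0.51, limma adjusted p = 0.00251), which read -0.28 in R6/2 against Wild Type (adjusted p = 0.0507). Alas1, the first enzyme of haem synthesis, was lower in R6/2 x DREAM +/- against R6/2 (-0.27, limma adjusted p = 0.00417). It was the 1 of the 7 lower there, where 4.73% of all genes were lower.

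**Figure D5:**
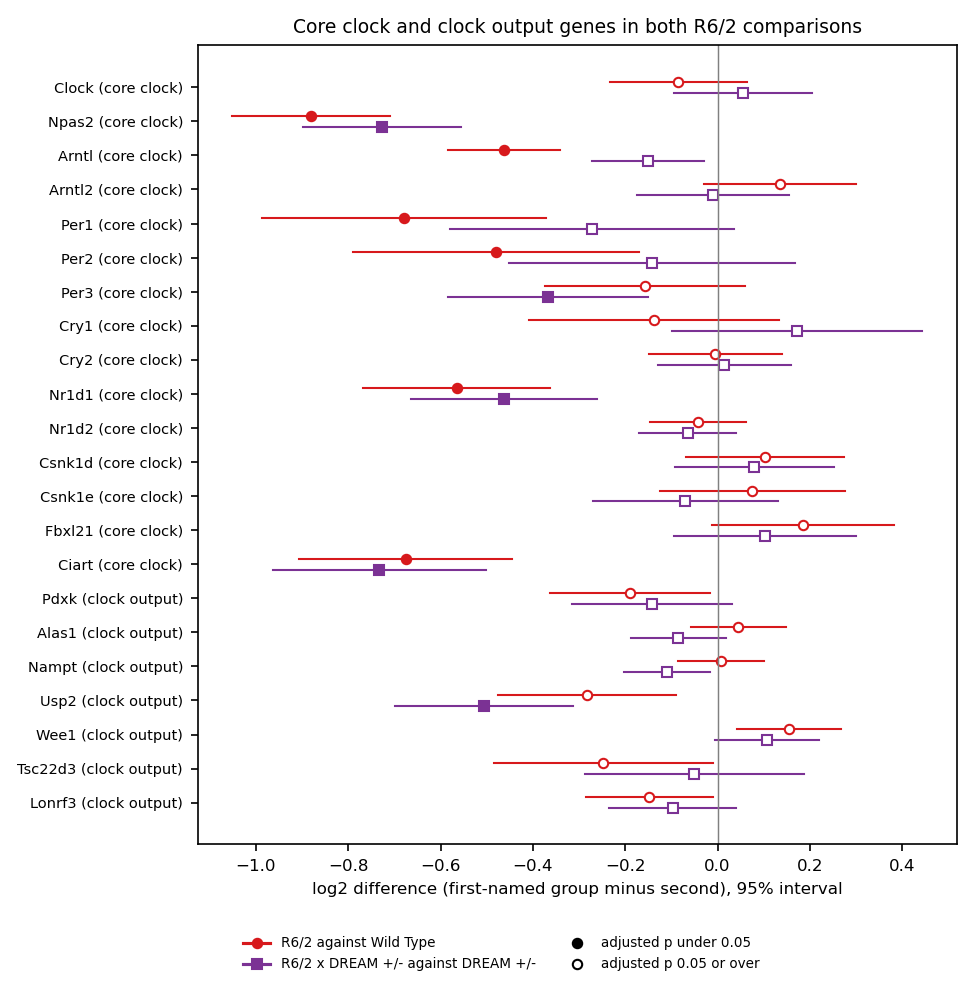
Log2 difference (x axis) with its 95% interval for 15 core clock and 7 clock output genes (y axis), on the brightest probe set of each, in both R6/2 comparisons. Filled symbols passed at an adjusted p under 0.05, and Npas2, Ciart and Nr1d1 are filled and below 0 in both.

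Markers of some cell types and of neuronal activity moved with the same groups, and those of other cell types mostly did not. In each R6/2 comparison, 1 of 7 astrocyte and 1 of 5 oligodendrocyte markers were lower. In both, 0 of 5 microglial, 0 of 3 endothelial and 0 of 3 choroid plexus markers were called. Of 10 markers of medium spiny neurons, the main neurons of striatum, 8 were lower and 0 higher in each R6/2 comparison (median -0.714 and -0.594). Their mean level per array was 11.13 to 11.47 in R6/2 x DREAM +/-, 11.22 to 11.40 in R6/2, 11.74 to 11.85 in DREAM +/- and 11.85 to 11.96 in Wild Type. Of 6 activity-regulated genes 6 were lower in R6/2 against Wild Type and 3 in R6/2 x DREAM +/- against DREAM +/-. In DREAM +/- against Wild Type 3 were lower, and in R6/2 x DREAM +/- against R6/2 1 was lower. Of all genes, 7.44% were lower in R6/2 against Wild Type and 4.71% in R6/2 x DREAM +/- against DREAM +/-. In R6/2 x DREAM +/- against R6/2 4.73% were lower and 2.91% higher, and in DREAM +/- against Wild Type 1.17% were lower. Of 6 cortical markers 5 were lower in R6/2 against Wild Type and 4 higher in R6/2 x DREAM +/- against R6/2, the same directions as Hlf. In R6/2 x DREAM +/- against DREAM +/-, where both Hlf probe sets were lower, 0 of 6 cortical markers were called (median -0.054). Their mean level was 8.58 to 8.92 in R6/2 x DREAM +/-, 7.76 to 8.37 in R6/2, 8.76 to 9.05 in DREAM +/- and 8.65 to 8.93 in Wild Type. Of 5 thalamic markers, 2 were lower in R6/2 x DREAM +/- against DREAM +/- (median -0.335), Prkcd at -0.70 and Calb2 at -0.34. Prkcd was also lower in R6/2 x DREAM +/- against R6/2 (-0.46). Dbp and Tef had lower probe sets in both of these comparisons. In R6/2 against Wild Type, where both Dbp probe sets and Tef 1424175_at were lower, 0 of 5 thalamic markers were called (median -0.102). Their mean level was 6.73 to 7.05 in R6/2 x DREAM +/-, 6.98 to 7.32 in R6/2, 7.13 to 7.34 in DREAM +/- and 7.20 to 7.32 in Wild Type. The part of these markers in the differences of Hlf, Dbp, Tef and Bhlhe40 was not tested.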

How the data were processed

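Total RNA of whole striatum was measured in 4 genotypes with 4 replicates each on 1-colour Affymetrix arrays, per the labels. The authors deposited log2 probe-set values for 45101 probe sets, between 3.34 and 14.71. The submitters' processing notes list RMA and affy without version or role. RMA gives all arrays 1 common distribution, which would hide a change shared by most genes. No source used here gives the genome build. Titles of the samples gave groups and replicate numbers.

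The platform annotation supplied with the data named the probe sets: 34945 had 1 symbol and were used, 932 several, 9160 none, and 64 were controls. limma 3.58.1 in R 4.3.3 (lmFit, eBayes) was run on all 16 arrays with 1 mean per genotype and no brightness filter, with Benjamini-Hochberg adjustment over the 34945 and a threshold of 0.05. The step was tested on simulated data. A filter at the 40th percentile of probe-set means (5.94), which 20 of the 23 probe sets pass, was an alternative, as were other normalizations, units, weights, covariates and the omission of arrays. The 8 genes, the clock and marker lists and the rule for named genes (every probe set of the 8, Kcnip3, and list genes that passed in an R6/2 comparison) were chosen with earlier results of these data known. Per3 and Alas1 are described for the DREAM +/- comparisons beyond that rule, after their values were seen. Likeness was the root mean square difference between mean-centred profiles over 16 arrays, for genes whose group means span at least 0.5.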

Additional observations from a re-analysis of the deposited data

Results flagged for a closer look

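Of 92 groups of 4 arrays (23 probe sets in 4 genotypes), 1 held an array flagged by Dixon's rule, which sets a gap against the group's range. On Rorb 1455799_at R6/2 replicate 2 read 5.76, while the other R6/2 arrays read 6.21 to 6.27, a gap of 0.882 of the group's range, above Dixon's critical value for 4 samples. Chance alone flags about 1 in 20 groups. Other distant arrays stayed under the critical value. Wild Type replicate 3 read 8.20 on Rora 1436326_at, while the other Wild Type arrays read 6.23 to 6.58. R6/2 x DREAM +/- replicate 3 read 8.30 on Tef 1450184_s_at, while the others of its group read 8.90 to 9.03.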

How the results depend on the processing

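Of 2877 results on single probe sets under alternatives, 2814 kept their side of the threshold, 46 lost it, 17 gained it and 0 reversed. The cause was not tested for any change listed here. With the brightest probe set per gene, which tests 8 of the 23, R6/2 x DREAM +/- against DREAM +/- had 3 lower, R6/2 x DREAM +/- against R6/2 had 0 lower and 1 higher with 1614 calls in all (2711 with every probe set), and DREAM +/- against Wild Type had 452 calls (790 with every probe set). Array weights gave 3741 calls in R6/2 x DREAM +/- against DREAM +/- (2420 without), 1550 in DREAM +/- against Wild Type, and 4 members higher in R6/2 x DREAM +/- against R6/2. With only the compared groups entered, R6/2 x DREAM +/- against DREAM +/- had 4 members lower. R6/2 x DREAM +/- against R6/2 then had 1 member lower and 1749 calls. Without R6/2 replicate 1 and R6/2 x DREAM +/- replicate 3 it had 1 lower and 0 higher. Once arrays were shifted to their common median, the interaction had 1 call among all probe sets.

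Leaving out 1 array at a time gave these ranges. In R6/2 x DREAM +/- against DREAM +/- members higher numbered 0 to 1 and all calls 1372 to 2875. In DREAM +/- against Wild Type members higher numbered 0 to 1 and all calls 423 to 1403. In R6/2 x DREAM +/- against R6/2 members lower numbered 1 to 2, members higher 0 to 4 and all calls 1410 to 3971. The interaction had 0 to 1 calls.

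The labels do not say whether the replicate numbers of the titles pair the arrays, and the correlations do not settle it. Of 24 same-numbered pairs, 8 had deviations correlated over 0.1 (median 0.053, range -0.43 to 0.28). The median of the other pairs was -0.0049. With the replicate number as a block, R6/2 x DREAM +/- against R6/2 had 1 member lower and 1 higher. R6/2 x DREAM +/- against DREAM +/- then had 5 lower.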

Other observations

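Genes with the profile most like each member over the 16 arrays were listed, as a description with no test, for the 3 members whose group means span at least 0.5 on the brightest probe set. For Hlf they were Atp2b2, a plasma membrane calcium pump (root mean square difference 0.109, log2), Ankrd33b (0.114) and Drd1, the dopamine receptor (0.118), where the median over 13008 genes was 0.333. For Dbp they were Actn2, an actinin (0.102), Rps6ka5, a kinase (0.124) and Gabrd, a GABA receptor subunit (0.128), against a median of 0.466. For Bhlhe40 they were Gadd45g (0.0712), Egr3, an activity-induced transcription factor (0.0861) and Kitl, the KIT ligand (0.0880), against a median of 0.280. The points share the same arrays, so these likenesses carry the array differences as well as those of genotype.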
